A study of Mus musculus with 24 samples.

Results

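Cultured primary hepatocytes of mice lacking KEAP1 in hepatocytes were compared with whole liver of mice of the same genotype. The 6 arrays, 3 of hepatocytes and 3 of liver, were taken by their sample titles from the 24 arrays of the study. The study profiled liver and cultured hepatocytes of 4 genotypes with 1-colour Affymetrix arrays, 3 arrays in each of 8 groups. Per the labels every array came from a male mouse aged 8 weeks. KEAP1 knockout mice carried a floxed Keap1 gene that was deleted by the Alfp-Cre transgene, in which albumin and alpha-fetoprotein regulatory sequences drive Cre in the liver epithelium. Controls, labelled NEMOf/f, carried floxed NEMO without the deletion, and NEMO knockout mice lost NEMO through the same Cre. The remaining genotype, labelled NEMOΔhepa/KEAP1Δhepa, is the double knockout. Its arrays enter the fits of all 24 arrays and of 20 arrays. The labels do not say whether KEAP1 knockout mice also carried floxed NEMO alleles. All hepatocytes were freed by perfusing the liver with collagenase, left in serum-containing medium to attach until the following day, and then given new medium. The labels name no further treatment and no time between that change of medium and harvest. The titles number the arrays 1 to 3 within each group and describe each as from a mouse, but do not say whether a liver and a culture with the same number share a mouse.

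KEAP1 is the adaptor through which the transcription factor NRF2 is marked for degradation. Without it NRF2 accumulates and drives genes for glutathione synthesis, NADPH supply and detoxification. Freshly isolated hepatocytes are known to switch on immediate early genes, which respond within minutes to growth factors and stress, and to lose liver-specific transcripts over days on plastic. Whole liver also holds stellate, endothelial, Kupffer and bile duct cells, many of which are left behind when hepatocytes are purified.

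The first principal component of the 6 arrays (51% of the variance) separated the tissues. On the second (14.2%) hepatocyte array 2 (-18.38) and liver array 3 (-16.62) lay apart from the other 4 arrays (5.03 to 14.04). Array medians over all probe sets were 4.056 to 4.072 for hepatocytes and 4.143 to 4.159 for liver on the log2 scale, and Pearson correlations across genes were 0.991 to 0.992 between hepatocyte arrays, 0.991 to 0.993 between liver arrays and 0.98 to 0.986 between the tissues. Xist, expressed in females, was at 2 to 2.98 on all 6 arrays. The Y-linked Eif2s3y, looked up after its values were seen, was at 6.74 on liver array 1 and at 7.62 to 7.75 on the other 5. Named genes that lose their call without liver array 1 are therefore marked as such. List counts also moved without it, and not each such count is given below. Genes called lower went from 25 to 20 on the actin list, from 10 to 7 on the glutathione list and from 27 to 23 on the matrix list. In the control groups 2 arrays were in doubt. Liver control 3 had the NRF2 target Nqo1 at 9.17 against 4.71 and 5.37 on the other liver controls, and hepatocyte control 1 had Xist at 9.65 and Eif2s3y at 2.51 although labelled male. Control values are therefore given with and without these 2 arrays. In the double knockout groups liver array 3 had the adipocyte marker Adipoq at 7.17, and hepatocyte array 3 had Xist at 9.76. Both were in doubt too, so 4 arrays of the study were in doubt, and the fit of 20 arrays left out all 4.

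Keap1 itself was at 5.73, 5.91 and 5.81 on hepatocyte arrays 1 to 3 and at 5.47, 5.38 and 5.76 on liver arrays 1 to 3. Control hepatocytes had 6.32, 5.90 and 5.95 and control livers 6.04, 6.35 and 5.88. Where the probes lie in the gene, inside or outside the part removed by Cre, is unknown here, and the deletion was not checked by these levels. Hepatocytes and liver of the KEAP1 knockout differed by 0.28 ± 0.13 (SE; limma adjusted p = 0.28, n = 3 arrays a group).

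Of 18820 genes, 1025 or 5.45% were called at an adjusted p under 0.05 by limma. In hepatocytes 176 genes were higher, 0.935% of all genes, and 849 were lower, 4.51%. The list counts below are to be read beside these shares, and none was tested against them. At least a 2-fold difference was seen for 51 of the higher and 350 of the lower genes. The median difference was 0.65 over the genes called higher, -0.91 over those called lower and 0.03 over all genes. The split leaned on the scaling: of the calls 17.2% were higher as deposited, 25.5% after quantile normalization, 25.8% when arrays were centred on housekeeping genes, and 82.3% of 3718 calls when they were centred on their medians, which moved all genes up by 0.21. Leaving out 1 array at a time gave 581 calls without hepatocyte array 3, 535 without liver array 1 and 616 without liver array 3, and 691 to 922 without any of the others. A shared fit over all 24 arrays, which include those in doubt, called 469.

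**Figure D1:**
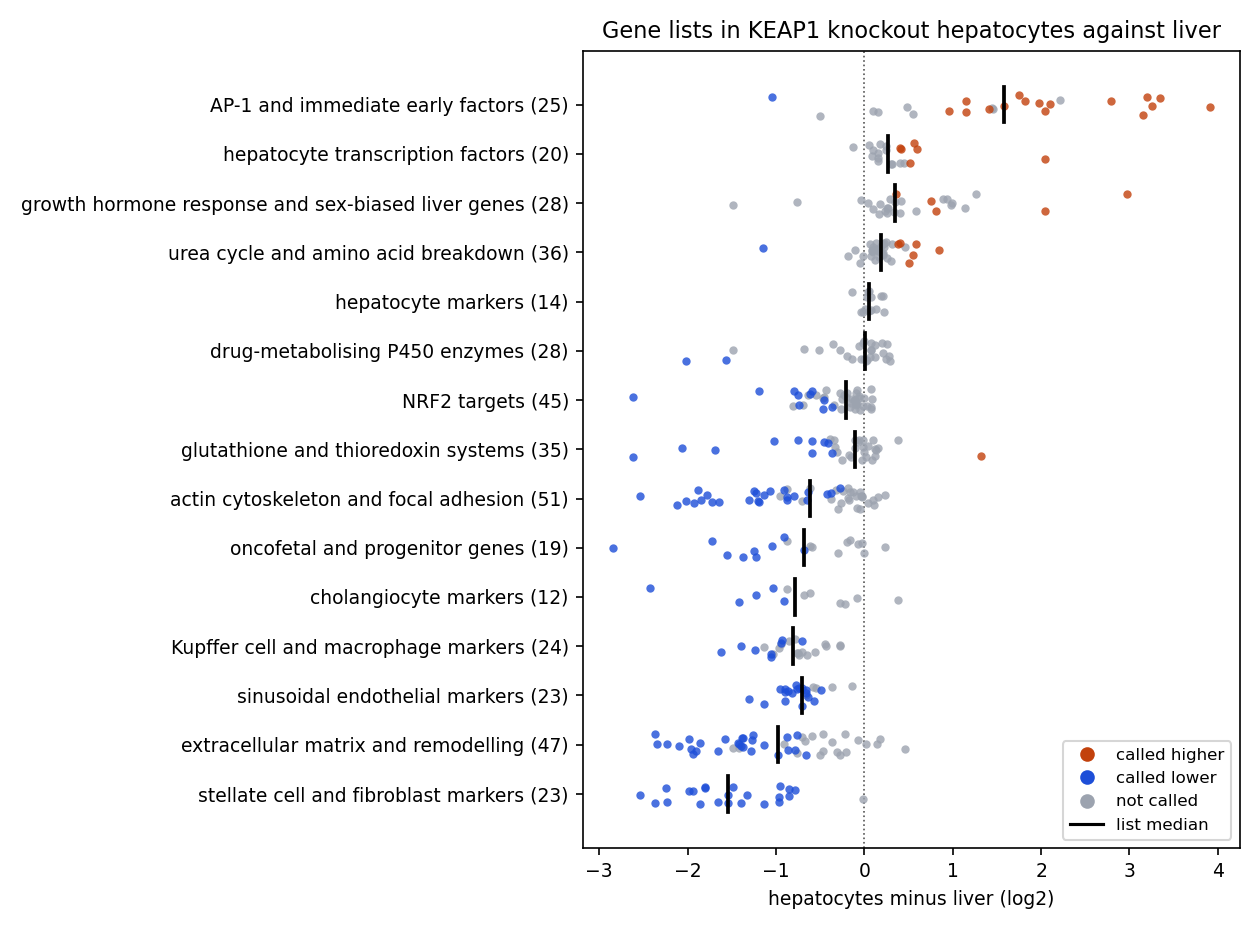
Differences of single genes (x axis, hepatocytes minus liver, log2) in 15 gene lists (y axis, genes measured in brackets); orange points were called higher, blue points called lower and grey points not called, and the black bar is the list median. Immediate early genes lie to the right with a median of 1.58, hepatocyte markers lie around 0, and stellate cell markers lie to the left with a median of -1.54. With each array centred on its median all points shift right by about 0.21, and the medians of NRF2 targets (0.01) and of the glutathione list (0.10) are then above 0.

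The immediate early genes rose most. Of 25 measured AP-1 and immediate early genes 16 were called higher in hepatocytes and 1 lower, with a median difference of 1.58 against 0.03 over all genes. Fos, a subunit of the AP-1 transcription factor, was at 8.64, 6.72 and 7.94 on the hepatocyte arrays and at 3.93, 3.67 and 3.96 on the liver arrays. The groups did not overlap, which held for 4841 of all 18820 genes, and hepatocyte array 2 was the lowest of the 3. The difference was 3.91 ± 0.38 (SE; limma adjusted p = 0.000815, n = 3 a group), the largest of all genes. Jun, its partner, was at 10.07, 9.16 and 9.82 in hepatocytes and at 6.12, 6.36 and 6.82 in liver, a rise of 3.25 ± 0.23 (adjusted p = 0.00018). Egr1, a zinc finger factor induced by growth factors, was at 8.63, 7.74 and 8.4 against 4.52, 4.71 and 5.93, a rise of 3.20 ± 0.35 (adjusted p = 0.00138). Each of the 3 genes had its lowest hepatocyte value on array 2, and Fosb (7.06, 4.90 and 6.02 in hepatocytes, 3.87 to 3.94 in liver) did so too.

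Genes that restrain this response, and further members, rose with them. Btg2, an antiproliferative factor, was at 9.04, 8.11 and 8.68 in hepatocytes and at 5.22, 4.87 and 5.71 in liver, a rise of 3.35 ± 0.25 (adjusted p = 0.000218). Zfp36, which destabilises AU-rich messenger RNAs, was at 9.45, 8.82 and 9.34 against 7.15, 7.16 and 7.19, a rise of 2.04 ± 0.15 (adjusted p = 0.00018). The livers were nearly equal for this gene. Dusp1, a phosphatase that switches off MAP kinases, was at 10.76, 9.90 and 10.65 against 8.41, 8.41 and 8.56, a rise of 1.98 ± 0.19 (adjusted p = 0.000721). Ier2 (3.15 ± 0.17), Junb (1.82 ± 0.27) and the small Maf protein Maff (1.15 ± 0.15), a dimer partner of NRF2, also rose. In all 6 of these genes hepatocytes and liver did not overlap, as in 4841 of all 18820 genes.

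Some members of the list were less settled. Atf3, a stress-induced repressor, was at 8.91, 6.32 and 8.44 in hepatocytes and at 5.68, 5.23 and 6.12 in liver and was not called (2.21 ± 0.55, adjusted p = 0.0522). Gadd45g, a stress sensor, was at 9.85, 9.01 and 9.66 against 5.64, 5.89 and 8.60, so liver array 3 lay close to the hepatocytes. Its rise of 2.79 ± 0.65 (adjusted p = 0.039) lost its call without any 1 of the 3 hepatocyte arrays or of liver arrays 1 and 2 (adjusted p 0.0646 to 0.126). Fosb (2.10 ± 0.43, adjusted p = 0.0228) lost its call without hepatocyte array 3 or any 1 liver array (adjusted p 0.0574 to 0.0774). Myc, at 9.04, 7.88 and 8.98 against 6.79, 6.56 and 8.15, overlapped between the groups (1.46 ± 0.41, adjusted p = 0.0816). Klf6, a zinc finger factor, was the member called lower (5.59, 5.25 and 5.02 against 6.22, 5.87 and 6.89, -1.04 ± 0.24, adjusted p = 0.0422), and lost its call without any array but liver array 2 (adjusted p 0.0532 to 0.136). Of the 16 calls 12 were kept without each array in turn.

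**Figure D2:**
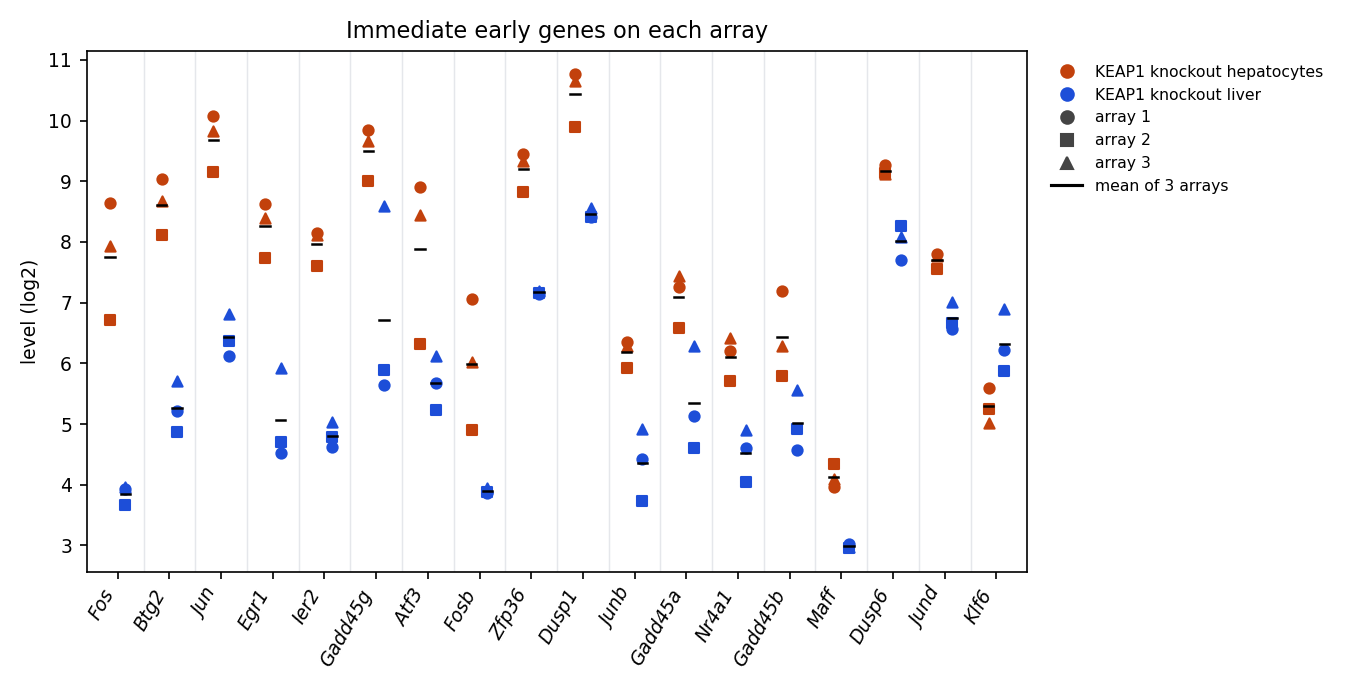
Log2 level (y axis) of the 17 called immediate early genes and of Atf3 (x axis, ordered by difference) on each of the 3 hepatocyte arrays (orange) and 3 liver arrays (blue); the marker shape gives the array number and the bar the mean of 3. Fos, Btg2, Jun, Egr1 and Ier2 differ by over 3 log2 units, hepatocyte array 2 is the lowest for the strongest of them, and Klf6 at the right end is the member called lower.

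The starts of these genes were searched for binding motifs in the 250 bases before the transcription start, on both strands, in RefSeq promoters of mouse build GRCm38.p6, which matched 14749 of the 18820 genes. The cyclic AMP response element TGACGTCA was present in Btg2, Dusp1 and Maff, 3 of the 14 immediate early genes that were called higher and have a promoter in the table (21.4%), against 2.4% of all promoters. It was in 0 of the 7 other members of the list with a promoter. The AP-1 motif TGANTCA was in 0 of 14 and in 0 of the 7 other members (7.0% of all promoters). The CArG box, bound by serum response factor, was in Zfp36, 1 of 14 (7.1%, against 1.5% of all), and in 1 of the 7 other members of the list with a promoter (14.3%). The antioxidant response element TGACNNNGC was in Dusp1, Gadd45g and Maff, 3 of 14 (21.4%, against 12.7% of all), and in 2 of the 7 other members (28.6%). A match is a description of the letters and does not show that a factor was bound. The windows with a match are shown because these genes rose together; the capitals mark the motif and each is written along the strand of the gene, for Btg2 chr1:134079254-134079381 (minus), for Dusp1 chr17:26508548-26508675 (minus), for Maff chr15:79347431-79347519 (plus) and for Zfp36 chr7:28379229-28379346 (minus).
Btg2: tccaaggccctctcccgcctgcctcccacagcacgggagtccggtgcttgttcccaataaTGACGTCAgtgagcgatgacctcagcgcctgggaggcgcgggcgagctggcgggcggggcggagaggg
Dusp1: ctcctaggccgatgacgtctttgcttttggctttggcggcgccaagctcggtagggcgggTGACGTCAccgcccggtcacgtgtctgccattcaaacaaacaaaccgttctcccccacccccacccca
Maff: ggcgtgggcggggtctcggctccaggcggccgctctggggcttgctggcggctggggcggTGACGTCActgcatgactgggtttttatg
Zfp36: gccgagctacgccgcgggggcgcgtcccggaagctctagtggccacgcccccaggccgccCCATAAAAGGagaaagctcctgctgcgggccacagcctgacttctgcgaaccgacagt

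Genes outside the immediate early list were also among the largest rises. Ppp1r3g, a glycogen-targeting subunit of protein phosphatase 1, was at 8.22, 7.62 and 7.51 in hepatocytes and at 4.16, 4.70 and 3.91 in liver, a rise of 3.53 ± 0.23 (limma adjusted p = 0.000138). Slc25a25, a mitochondrial carrier of ATP-Mg and phosphate, was at 10.03, 9.88 and 9.91 against 7.15, 8.52 and 7.35, a rise of 2.27 ± 0.29 (adjusted p = 0.0027). Of 16 clock and clock output genes 2 were called higher and 0 lower. These were the repressors Bhlhe40 (8.55, 8.72 and 8.86 against 7.10, 6.62 and 6.70, 1.90 ± 0.13, adjusted p = 0.00018) and Bhlhe41 (4.46, 5.44 and 6.28 against 3.13, 3.16 and 3.46, 2.15 ± 0.37, adjusted p = 0.0111). The clock activator Arntl was at 7.51, 6.22 and 5.89 against 7.39, 7.48 and 7.42 and was not called (adjusted p = 0.182). Npas2, its relative, chosen after its values were seen, was at 6.70, 4.08 and 4.55 against 6.97, 6.82 and 6.34 (adjusted p = 0.145). Their hepatocyte values were near those of liver on array 1 and lower on arrays 2 and 3. Without hepatocyte array 1, 8 genes of the clock list were called higher and 2 lower. Txnip, which binds thioredoxin and responds to glucose, was at 10.51, 10.20 and 9.89 against 8.82, 8.81 and 9.01 and rose by 1.32 ± 0.14 (adjusted p = 0.00105).

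Genes that mark the hepatocyte gave no calls as deposited. Of 14 hepatocyte markers 0 were called, the median difference was 0.05, and the mean level of the list was 12.36 to 12.43 on hepatocyte arrays and 12.31 to 12.36 on liver arrays. With arrays centred on their medians the list median was 0.26 and 8 of the 14 were called higher, and after quantile normalization the median was 0 with 0 called. Albumin, Alb, was at 13.28, 13.23 and 13.23 in hepatocytes and at 13.23, 13.20 and 13.16 in liver, close to the highest value of any probe set on the arrays. The master regulator Hnf4a, well below that ceiling, was at 10.67, 10.64 and 10.48 against 10.35, 10.55 and 10.74, a difference of 0.05 ± 0.10 (limma adjusted p = 0.831). Of 20 hepatocyte transcription factors 6 were called higher and 0 lower, with a median of 0.27, or 15 higher with median centring. Cebpa was at 9.12, 9.17 and 9.29 against 8.69, 8.69 and 8.51, a rise of 0.56 ± 0.08 (adjusted p = 0.00463). Creb3l3, a membrane-bound factor of the fasting response, rose by 0.52 ± 0.08 (adjusted p = 0.00767). Onecut1 was at 8.66, 7.77 and 8.86 against 5.44, 7 and 6.73, a rise of 2.04 ± 0.39 (adjusted p = 0.0179) that lost its call without hepatocyte array 1 (0.0673) or 3 (0.0726). The count of 6 fell to 3 without hepatocyte array 1, liver array 1 or liver array 2, to 2 without hepatocyte array 3, and to 4 without hepatocyte array 2.

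Metabolic lists held more genes called higher with arrays centred on their medians than on the deposited scale. The same was so for all 18820 genes, of which 176 (0.935%) were called higher as deposited and 3059 with median centring. As deposited 4.51% of all genes were called lower. Of 36 urea cycle and amino acid genes 6 were called higher and 1 lower (median 0.19), against 28 and 1 with median centring and 0 and 1 in the fit of all 24 arrays. Argininosuccinate lyase, Asl, was at 10.35, 10.47 and 10.34 against 10.00, 9.83 and 9.54 (0.59 ± 0.11, limma adjusted p = 0.0143), and the ornithine carrier Slc25a15 rose by 0.55 ± 0.09 (adjusted p = 0.00828). Of the 6, only 3 were called without hepatocyte array 1, and 4 without hepatocyte array 3, liver array 2 or liver array 3. The gluconeogenic enzyme Pck1 was at 11.96, 12.25 and 12.15 against 11.66, 11.41 and 11.69 (0.54 ± 0.10, adjusted p = 0.012, but 0.0525 without hepatocyte array 3). G6pc, which releases free glucose, was at 12.09, 12 and 11.80 against 10.52, 11.67 and 10.37 and was not called (1.11 ± 0.28, adjusted p = 0.0534). Alas1, the first enzyme of haem synthesis, rose by 0.63 ± 0.11 (adjusted p = 0.0104). Fatty acid oxidation (1 of 30 called higher), lipogenesis (1 of 22), cholesterol synthesis (0 of 20), oxidative phosphorylation (0 of 34), proteasome (0 of 34) and heat shock genes (0 of 12) gave 0 genes called lower. Their medians lay between -0.10 and 0.07, and between 0.11 and 0.29 with arrays centred on their medians. That centring called 13 fatty acid oxidation, 13 oxidative phosphorylation, 8 proteasome, 7 heat shock, 4 lipogenesis and 2 cholesterol synthesis genes higher. Of 45 secreted proteins of hepatocytes 2 were called higher and 0 lower, of 26 bile acid genes 2 and 1, of 15 gluconeogenesis and glycogen genes 2 and 1, and of 19 housekeeping genes 0 and 0. With median centring 31, 15, 9 and 6 genes of these 4 lists were called higher. Without 1 array these small counts moved, to 0 for the secreted proteins without hepatocyte array 1 or hepatocyte array 3 and to 0 higher for the bile acid genes without either of these arrays.

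Growth hormone acts on liver from the pituitary and sets male and female patterns of expression. Of 28 measured growth hormone and sex-biased genes 5 were called higher and 0 lower (median 0.35), against 18 higher with median centring and 0 in the fit of all 24 arrays. As deposited 0.935% of all genes were called higher and 4.51% lower. Hsd3b5, a male-biased steroid dehydrogenase, was at 9.33, 8.83 and 8.77 in hepatocytes and at 4.74, 5.62 and 7.66 in liver. The hepatocytes lay close together while the livers spread widely, and the rise of 2.97 ± 0.58 (limma adjusted p = 0.0193) lost its call without hepatocyte array 1 or 3 or liver array 2 (adjusted p 0.0581 to 0.0709). Selenbp2 rose by 0.81 ± 0.11 (adjusted p = 0.00409), and Igfals, which carries IGF1 in blood, by 0.75 ± 0.14 (adjusted p = 0.015, and 0.0506 to 0.0594 without hepatocyte array 3 or 1). Igf1 was at 10.69, 10.49 and 10.63 against 10.22, 10.33 and 10.18 (0.36 ± 0.07, adjusted p = 0.0254). Its call was lost without hepatocyte array 1 or 3 or liver array 1 or 3 (0.0821 to 0.097), and the list had 1 call without hepatocyte array 1 or hepatocyte array 3 and 8 without liver array 3.

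Hepatocytes differ in their enzymes between the zones around the portal and the central vein. Of 19 pericentral genes 0 were called higher and 3 lower, and of 14 periportal genes 2 were called higher and 0 lower. The shares over all genes were 0.935% higher and 4.51% lower. With median centring 4 pericentral genes were called higher and 2 lower. Without liver array 1 or liver array 3 the pericentral count was 1, and without hepatocyte array 3 the periportal count was 1. Glul, glutamine synthetase, which marks the last hepatocytes before the central vein, was at 9.64, 9.67 and 10.26 in hepatocytes and at 11.20, 10.76 and 11.08 in liver, a fall of -1.15 ± 0.17 (limma adjusted p = 0.0048) kept without each array in turn. Slc1a2, a glutamate transporter of the same cells, was at 5.95, 7.53 and 7.59 against 8.74, 8.28 and 8.79 (-1.58 ± 0.37, adjusted p = 0.0432) and lost its call without any 1 liver array (0.0615 to 0.135). Lgr5 fell by 0.79 on the log2 scale (adjusted p = 0.0475), which no fit without a hepatocyte array or without liver array 1 or 3 called (0.0795 to 0.153). Cyp2e1, a pericentral P450 enzyme, was at 12.76, 12.73 and 12.80 against 12.67, 12.72 and 12.68 and was not called (0.08 ± 0.05, adjusted p = 0.443). The medians of the pericentral list (-0.08) and of 28 drug-metabolising P450 enzymes (0.01) changed sign with the scaling, to 0.13 with median centring and to -0.01 with quantile normalization. In the P450 list 2 genes were called lower, the aryl hydrocarbon receptor targets Cyp1a1 (3.63, 3.96 and 3.83 against 6.17, 6.72 and 4.57, adjusted p = 0.0315) and Cyp1b1 (2.90, 2.39 and 2.74 against 4.15, 3.65 and 4.93, adjusted p = 0.0158). Cyp1a1 lost its call without any array but liver array 3 (0.067 to 0.116), and Cyp1b1 without hepatocyte array 2 or 3 or liver array 1 (0.0514 to 0.0538).

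Some NRF2 targets were lower in cultured hepatocytes than in liver, and most were not called. Of 45 measured targets 0 were called higher and 10 lower, 40 had a difference below 0, and the median was -0.21 against 0.03 over all genes. Among all 18820 genes 0.935% were called higher and 4.51% lower, and 8508 had a difference below 0. Centring each array on its median moved the median of the list to 0.01, with 7 called lower and 3 (Gstm1, Gstp1 and Ugt2b35, named after their values were seen) called higher by 0.24 to 0.30. Slc7a11, which imports cystine for glutathione synthesis, was at 4.99, 6.43 and 5.57 in hepatocytes and at 7.82, 8.53 and 8.50 in liver. The groups did not overlap, as in 4841 of all 18820 genes. The fall of -2.62 ± 0.32 (limma adjusted p = 0.00234) was the largest in the list. Control hepatocytes had 2.98, 3.34 and 3.21 and liver controls 1 and 2 had 2.63 and 2.42, while liver control 3, in doubt, had 9.29. Slc7a11 was thus lower in KEAP1 knockout hepatocytes than in KEAP1 knockout liver, and above every control hepatocyte array. The cause of the lower level was not tested.

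The other 9 called targets fell by less. Cbr3, a carbonyl reductase, was at 9.02, 9.05 and 9.06 in hepatocytes and at 9.57, 9.85 and 9.57 in liver, a fall of -0.62 ± 0.09 (limma adjusted p = 0.00401). Control hepatocytes had 4.11, 3.04 and 4.32, so the knockout hepatocytes lay over 4 log2 units above them. Pgd, an NADPH-producing enzyme of the pentose phosphate pathway, was at 9.05, 8.89 and 8.80 against 9.58, 9.86 and 9.50 (-0.74 ± 0.10, adjusted p = 0.00446). Srxn1, sulfiredoxin, was at 8.34, 8.30 and 8.21 against 8.80, 8.89 and 8.92 (-0.59 ± 0.07, adjusted p = 0.00259). Txnrd1, thioredoxin reductase, was at 9.18, 9.10 and 9.17 against 9.59, 9.67 and 9.56 (-0.46 ± 0.07, adjusted p = 0.00474), with control hepatocytes at 8.66, 8.43 and 8.54. These 4 and Slc7a11 were the 5 targets whose call was kept without each array in turn. Abcc4 (0.0579) and Akr1b8 (0.0518) lost theirs without hepatocyte array 3, Gstm2 without hepatocyte array 1 (0.0553) or liver array 1 (0.0527), Gclc without hepatocyte array 2 or 3 or liver array 3 (0.0557 to 0.0762), and Gpx2 without hepatocyte array 1 or 2 or liver array 1 or 3 (0.089 to 0.111). Calls on the list numbered 7 to 10 without each array, 7 in the fit of 20 arrays and 0 in the fit of all 24.

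Classic targets were among those not called. Nqo1, a quinone reductase used as a readout of NRF2, was at 8.65, 8.07 and 8.62 in hepatocytes and at 9.01, 9 and 8.60 in liver (-0.43 ± 0.16, limma adjusted p = 0.193), and the groups overlapped at liver array 3. Gclm, the modifier subunit of glutamate-cysteine ligase, was at 10.33, 10.30 and 10.41 against 10.58, 10.68 and 10.52 (-0.25 ± 0.07, adjusted p = 0.067). Hmox1, haem oxygenase, was at 7.26, 7.24 and 6.53 against 7.65, 7.30 and 8.48 (adjusted p = 0.161). Nfe2l2, which encodes NRF2, was at 8.06, 8.21 and 8.18 against 8.43, 8.47 and 8.34 (-0.26 ± 0.08, adjusted p = 0.0955). Of 17 genes of the NRF2 switch, which includes its repressors and partners, only Maff was called.

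In the broader list of 35 glutathione and thioredoxin genes 1 was called higher (Txnip) and 10 lower, with a median of -0.11 that became 0.10 with median centring. The shares over all genes were 0.935% higher and 4.51% lower. Of the 10, 5 are NRF2 targets named above (Gclc, Slc7a11, Gpx2, Txnrd1 and Srxn1). Gpx3, a secreted glutathione peroxidase, was at 4.06, 4.41 and 3.47 against 6.48, 5.53 and 6.14 (-2.06 ± 0.28, limma adjusted p = 0.00367). Sod3, the extracellular superoxide dismutase, was at 5.35, 5.17 and 4.91 against 7.14, 6.53 and 6.85 (-1.69 ± 0.17, adjusted p = 0.000874). Control hepatocytes were at 3.20 to 3.68 for Gpx3 and at 3.85 to 4.40 for Sod3. The list count was 6 without hepatocyte array 1 or hepatocyte array 2 and 5 without liver array 3.

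**Figure D3:**
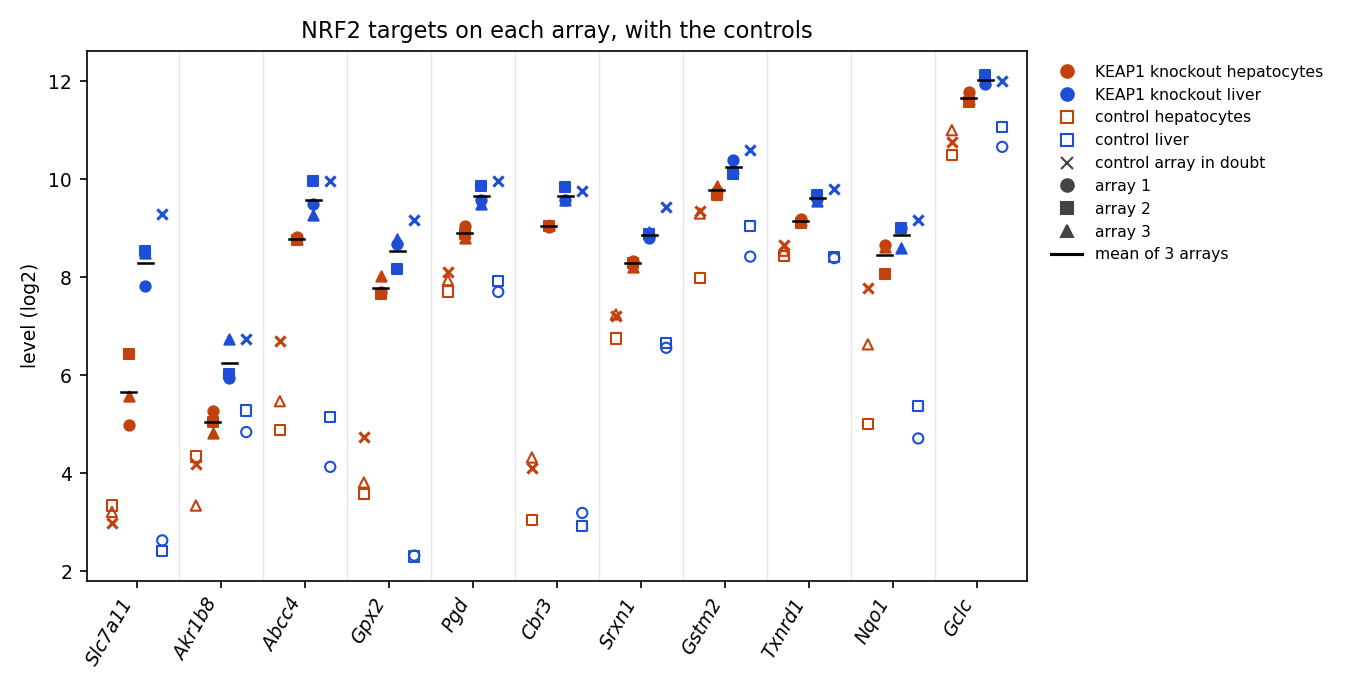
Log2 level (y axis) of the 10 NRF2 targets called lower and of Nqo1 (x axis) on the KEAP1 knockout hepatocyte arrays (filled orange) and liver arrays (filled blue), with control hepatocytes (open orange) and control liver (open blue) beside them; crosses are the 2 control arrays in doubt and bars the mean of 3 KEAP1 knockout arrays. KEAP1 knockout hepatocytes lie below KEAP1 knockout liver for each called target (a difference of -2.62 for Slc7a11 and -0.37 for Gclc) and above all control hepatocytes for all 11 genes; with arrays centred on their medians Gclc, Gstm2 and Txnrd1 were no longer called.

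For the NRF2 targets the antioxidant response element was searched as TGACNNNGC on both strands of the same 250 bases, and begins with the same letters as TGACGTCA. It was present in Abcc4 and Txnrd1, 2 of the 9 called targets with a promoter in the table (22.2%), in 5 of 30 targets that were not called (16.7%), and in 12.7% of all promoters. The window of Txnrd1 at chr10:82859054-82859182 (GRCm38.p6, plus strand) is shown because its call was kept without each array; the capitals mark the element, which reads on the opposite strand.
Txnrd1: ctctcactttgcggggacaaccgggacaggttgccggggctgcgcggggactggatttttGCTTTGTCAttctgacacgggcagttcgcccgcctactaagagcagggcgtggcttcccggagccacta

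Genes of stellate cells and fibroblasts fell most. Of 23 measured markers 22 were called lower and 0 higher, with a median of -1.54 and a list mean of 4.91 to 5.14 on hepatocyte arrays and 6.31 to 6.61 on liver arrays. In bulk RNA, fewer cells of a type and less RNA per cell cannot be told apart. Lrat, which stores retinol in quiescent stellate cells, was at 6.52, 6.25 and 6.63 in hepatocytes and at 8.50, 7.81 and 7.70 in liver (-1.54 ± 0.20, limma adjusted p = 0.00274). Reln was at 5.99, 5.79 and 5.81 against 7.56, 7.25 and 7.40 (-1.54 ± 0.11, adjusted p = 0.00018). The contractile gene Acta2 was at 3.52, 4.76 and 4.24 against 6.54, 6.30 and 7.31 (-2.54 ± 0.33, adjusted p = 0.0028), and the pericyte gene Rgs5 was at 5.14, 5.31 and 4.87 against 7.68, 6.88 and 7.51 (-2.24 ± 0.20, adjusted p = 0.000569). None of these 4 overlapped between the groups, as was so for 4841 of all 18820 genes. They did not vanish: 18 of the 23 markers lay above the 95th percentile of olfactory receptor genes, used here as a background level, on all hepatocyte arrays, and 22 did on all liver arrays. Without each array in turn 18 to 22 markers were called lower.

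Matrix genes followed. Of 47 extracellular matrix and remodelling genes 27 were called lower and 0 higher (median -0.98), and 21 of these calls were kept without each array in turn. Dpt, dermatopontin, had the largest fall of all genes and was at 2.55, 2.52 and 2.47 in hepatocytes, within the background, and at 5.46, 6.01 and 6.86 in liver (-3.60 ± 0.30, limma adjusted p = 0.000359). Col3a1, a fibrillar collagen, was at 4.71, 4.81 and 4.63 against 7.23, 6.80 and 7.22 (-2.37 ± 0.14, adjusted p = 0.000132). Dcn, decorin, was at 8.35, 8.54 and 8.18 against 10.39, 10.07 and 10.43 (-1.94 ± 0.12, adjusted p = 0.000132). Fn1, fibronectin, which hepatocytes secrete, was at 11.33, 11.19 and 11.32 against 11.36, 11.03 and 11.40 and overlapped (0.02 ± 0.10, adjusted p = 0.946). Gsn (-3.17), Sparcl1 (-2.38), Timp2 (-2.35), Lum (-2.23) and Prelp (-2.19), which encode an actin-severing protein, a matricellular protein, a metalloproteinase inhibitor and 2 leucine-rich proteoglycans, were also among the 15 largest falls.

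Sinusoidal endothelial markers fell by less than the stellate markers. Of 23 measured 18 were called lower and 0 higher (median -0.71), and all 23 were above background on every array of both tissues. Stab2, a scavenger receptor of these cells, was at 7.66, 7.67 and 7.21 in hepatocytes and at 8.26, 8.35 and 8.15 in liver (-0.74 ± 0.13, limma adjusted p = 0.0109). Eng, a TGF-beta co-receptor, was at 8.15, 8.23 and 7.85 against 9.07, 8.97 and 8.89 (-0.90 ± 0.11, adjusted p = 0.00198). Cdh5, the endothelial cadherin, was at 7.61, 7.38 and 7.02 against 8.16, 8.22 and 8.20 (-0.86 ± 0.13, adjusted p = 0.0068). Hepatocyte array 3 was the lowest for all 3 genes and for the mean of the list (6.70, against 7.09 and 7.08 on arrays 1 and 2 and 7.61 to 7.73 in liver). The count dropped to 12 without hepatocyte array 3, to 7 without liver array 1, to 10 without liver array 2 and to 11 without liver array 3, and 6 calls were kept throughout.

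Kupffer cell and macrophage markers had differences below 0 in all 24 measured genes (median -0.81), of which 8 were called lower. Ptprc, the pan-leukocyte CD45, was at 5.54, 5.40 and 4.80 in hepatocytes and at 6.58, 6.51 and 6.83 in liver (-1.39 ± 0.19, limma adjusted p = 0.00372). Ctss, cathepsin S, was at 7.44, 7.71 and 7.08 against 8.92, 8.20 and 8.83 (-1.24 ± 0.20, adjusted p = 0.00845). Clec4f, which marks resident Kupffer cells, was at 8.22, 8.54 and 7.83 against 9.28, 8.59 and 8.94 and was not called (-0.74 ± 0.20, adjusted p = 0.0667). Its hepatocyte levels were well above the background of 3.498 to 3.662 on those arrays. Adgre1, which encodes a macrophage surface receptor, was called (-0.94 ± 0.21, adjusted p = 0.0375) but not without hepatocyte array 1 or any 1 liver array (0.0549 to 0.135). The list mean was 6.41, 6.59 and 5.97 in hepatocytes and 7.47, 6.81 and 7.22 in liver. The count was 5 without hepatocyte array 1 or hepatocyte array 3, 2 without liver array 1, 3 without liver array 3 and 12 without liver array 2.

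Markers of bile ducts and blood cells gave fewer calls. The share called lower over all genes was 4.51%, and the share called higher 0.935%. Of 12 bile duct markers 5 were called lower. On all hepatocyte arrays 5 of the 12 were above background, and on all liver arrays 9. Bicc1, an RNA-binding protein of ducts, was at 4.08, 4.80 and 4.6 in hepatocytes and at 6.76, 6.65 and 7.33 in liver (-2.42 ± 0.22, limma adjusted p = 0.000603). Krt19, a duct keratin, was at 3.54, 3.19 and 3.32 against 3.99, 4.25 and 4.53 (-0.91 ± 0.18, adjusted p = 0.0193, and 0.0633 to 0.0671 without hepatocyte array 2, hepatocyte array 3 or liver array 3). Calls on the duct list numbered 2 without hepatocyte array 1 or hepatocyte array 3, 1 without hepatocyte array 2 and 3 without liver array 3. Class II genes of the dendritic cell list fell, with Cd74, the invariant chain, at 8.06, 7.43 and 7.27 against 9.29, 8.98 and 9.59 (-1.70 ± 0.21, adjusted p = 0.00226) and the class II gene H2-Aa at 6.54, 5.98 and 5.97 against 8.13, 7.5 and 8.54 (-1.89 ± 0.25, adjusted p = 0.00294). Of 18 T and natural killer cell markers 2 were called lower, of 12 B cell markers 2, of 20 neutrophil and dendritic cell markers 5, of 13 adipocyte and mesothelial markers 3, and of 11 erythroid and platelet markers 2, with 1 higher. Of the T cell markers 6 of 18 were above background on all hepatocyte arrays. The T cell count was 0 without any 1 array but liver array 2, where it was 1, and the adipocyte and B cell counts were 1 to 2 without 1 array.

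**Figure D4:**
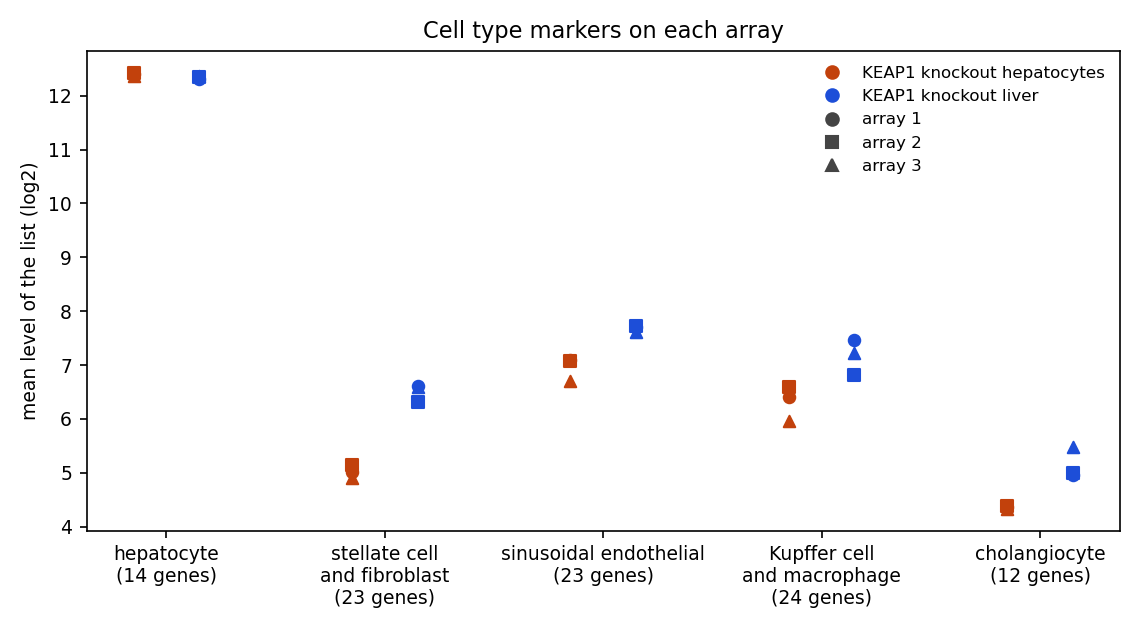
Mean log2 level (y axis) of 5 cell type marker lists (x axis) on each KEAP1 knockout hepatocyte array (orange) and liver array (blue), with the shape of the point giving the array number. Hepatocyte markers lie between 12.31 and 12.43 on all arrays, stellate cell markers at 4.91 to 5.14 in hepatocytes and 6.31 to 6.61 in liver, and endothelial markers at 6.70 to 7.09 and 7.61 to 7.73.

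Genes linked to attachment and spreading were called lower, not higher, in these cultures. Of 51 actin cytoskeleton and focal adhesion genes 0 were called higher and 25 lower (median -0.61), and 18 to 27 lower without each array in turn. Flna, filamin A, was at 4.55, 4.81 and 4.39 in hepatocytes and at 6.44, 6.14 and 6.96 in liver (-1.93 ± 0.20, limma adjusted p = 0.00116). Tmsb10, which sequesters actin monomers, was at 5.63, 5.89 and 5.48 against 7.68, 7.35 and 8.03 (-2.02 ± 0.17, adjusted p = 0.000395). Actb, beta-actin, was at 12.19, 12.08 and 12.10 against 12.26, 12.29 and 12.38 and was not called (-0.18 ± 0.06, adjusted p = 0.115). Vim, the intermediate filament of mesenchymal cells, was at 7.08, 7 and 6.57 against 8.57, 8.25 and 9.48 (-1.88 ± 0.27, adjusted p = 0.0047). Of 28 integrins and laminins 0 were called higher and 12 lower, the largest falls being Itga8 (-1.61 ± 0.16) and Lama2 (-1.51 ± 0.14), and the count was 7 without hepatocyte array 3 and 8 without liver array 1. Stellate and endothelial markers fell in the same arrays, and their part in these results was not tested.

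Targets of the mechanosensitive factors YAP and TEAD split. Of 24 measured 2 were called higher and 10 lower, or 1 and 6 without liver array 1, and 1 higher without hepatocyte array 1, hepatocyte array 3 or liver array 2. Ccn1, a secreted matricellular protein that is also an immediate early gene, was at 8.80, 7.82 and 9.01 in hepatocytes and at 7.03, 6.69 and 7.09 in liver (1.61 ± 0.26, limma adjusted p = 0.0083). Its relative Ccn2, connective tissue growth factor, was at 4.98, 4.85 and 4.69 against 6.86, 6.69 and 6.89 (-1.97 ± 0.12, adjusted p = 0.000132). Hepatocytes and liver did not overlap for either gene, in opposite directions. The groups did not overlap for 4841 of all 18820 genes. Of 24 targets of serum response factor 5 were called higher, all of them immediate early genes (Fos, Fosb, Egr1, Junb and Ccn1), and 6 lower, all of them contractile or cytoskeletal genes (among them Acta2, Flna and Myl9, at -1.22 ± 0.13). The median of that list was -0.19, and 0.02 with median centring.

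Markers of dedifferentiation and growth held no gene called higher. Of 19 oncofetal and progenitor genes 0 were called higher and 9 lower (median -0.68). Only 5 of the 19 were above background on all hepatocyte arrays, and 13 on all liver arrays. Afp, alpha-fetoprotein, was at 3.63, 3.12 and 3.36 in hepatocytes and at 3.81, 3.16 and 3.36 in liver, near background in both (-0.07 ± 0.20, limma adjusted p = 0.879). Cd24a, a surface protein of progenitor and duct cells, was at 3.38, 3.49 and 3.81 against 6.07, 5.69 and 7.45 (-2.84 ± 0.38, adjusted p = 0.00328). The count was 3 without hepatocyte array 1, 5 without hepatocyte array 2 or liver array 1, 2 without hepatocyte array 3 and 4 without liver array 3. Of 38 cell cycle genes 0 were called higher and 6 lower (4 without hepatocyte array 1 or liver array 2, 3 without hepatocyte array 3, liver array 1 or liver array 3). Ccnd1, cyclin D1, was at 5.57, 5.10 and 5.19 against 6.25, 6.66 and 6.78 (-1.28 ± 0.17, adjusted p = 0.0033). Of 20 TGF-beta and mesenchymal transition genes 0 were called higher and 7 lower, with Tgfb1 at 5.89, 5.98 and 5.38 against 6.80, 6.86 and 7 (-1.14 ± 0.16, adjusted p = 0.0039). The genes called lower on these lists include the duct keratins Krt7 and Krt19 and the mesenchymal gene Vim. The duct, stellate and endothelial marker lists were lower on the same arrays, with medians of -0.78, -1.54 and -0.71, and their part in these results was not tested. Of 23 glycolysis genes 0 were called higher and 4 lower, led by Pfkp (-1.32 ± 0.23) and Pkm (-1.24 ± 0.12). Its count was 2 without hepatocyte array 1, hepatocyte array 3, liver array 2 or liver array 3, and its median of -0.04 became 0.17 with median centring. With median centring 3 cell cycle genes, 1 TGF-beta gene, 1 glycolysis gene and 0 oncofetal genes were called higher, as were 2 of the actin genes.

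Inflammatory and stress lists held few calls and wide spreads. Among all genes 4.51% were called lower and 0.935% higher, and the small counts here were not tested against those shares. Of 32 NF-kB targets and chemokines 0 were called higher and 2 lower, Vcam1 (-1.33 ± 0.20, limma adjusted p = 0.00539) and Csf1 (-1.06 ± 0.23, adjusted p = 0.0307, and 0.091 to 0.0924 without hepatocyte array 2 or 1). Of 23 acute phase genes 0 were called in either direction. Saa2, serum amyloid A, was at 7.41, 10.12 and 7.88 in hepatocytes and at 10.44, 7.20 and 11.27 in liver (adjusted p = 0.562). Lcn2, lipocalin 2, was at 7.12, 8.05 and 7.58 against 10.54, 7.67 and 10.62 (adjusted p = 0.126). Liver array 2 was the lowest liver for both genes, and hepatocyte array 2 the highest hepatocyte array. Of 33 genes of the unfolded protein and integrated stress response 2 were called higher and 1 lower, among them Ppp1r15a, a phosphatase subunit that ends translational arrest (5.57, 5.10 and 5.26 against 4.38, 4.38 and 4.46, 0.90 ± 0.15, adjusted p = 0.00858). Of 29 interferon and class I genes 0 were called higher and 5 lower, with Gbp2 at 4.65, 4.45 and 4.36 against 5.55, 5.31 and 5.58 (-1 ± 0.14, adjusted p = 0.00416). The interferon count was 3 without hepatocyte array 1, 2 without hepatocyte array 3 and 1 without liver array 1 or liver array 3, and the median of that list was -0.14, or 0.07 with median centring. Of 20 p53 targets 1 was called higher (Btg2) and 2 lower, of 27 metal handling genes 1 and 1, of 19 junction genes 0 and 2, and of 13 tubulins 0 and 2. Without 1 array 0 to 2 genes were called lower on each of these 4 lists, with 0 p53 targets lower without hepatocyte array 3, liver array 1 or liver array 3 and 0 tubulins without liver array 1 or liver array 3.

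The other genotypes were set beside these values. Across all 18820 genes the difference between hepatocytes and liver in KEAP1 knockout mice correlated with that in controls at r = 0.666, at 0.55 without the 2 control arrays in doubt, and with that in NEMO knockout mice at 0.707. These comparisons share no array, but genes are not independent and all cultures were made in the same way. Of the 176 genes higher in KEAP1 knockout hepatocytes, 150 had a difference above 0 in controls (141 without the arrays in doubt) and 160 in NEMO knockouts. Of the 849 lower genes, 821 (774) and 835 had one below 0. Over all 18820 genes the median difference was 0.02 in controls (0 without the arrays in doubt) and 0.02 in NEMO knockouts. The immediate early list had medians of 1.58 in KEAP1 knockout, 2.43 in controls (2.35 without the arrays in doubt) and 2.08 in NEMO knockout. The stellate cell list had medians of -1.54, -1.89 (-1.55) and -1.19, and the endothelial list -0.71, -1.64 (-1.48) and -0.34. The NRF2 target list had -0.21, -0.18 (0.13 without the arrays in doubt) and -0.01.

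**Figure D5:**
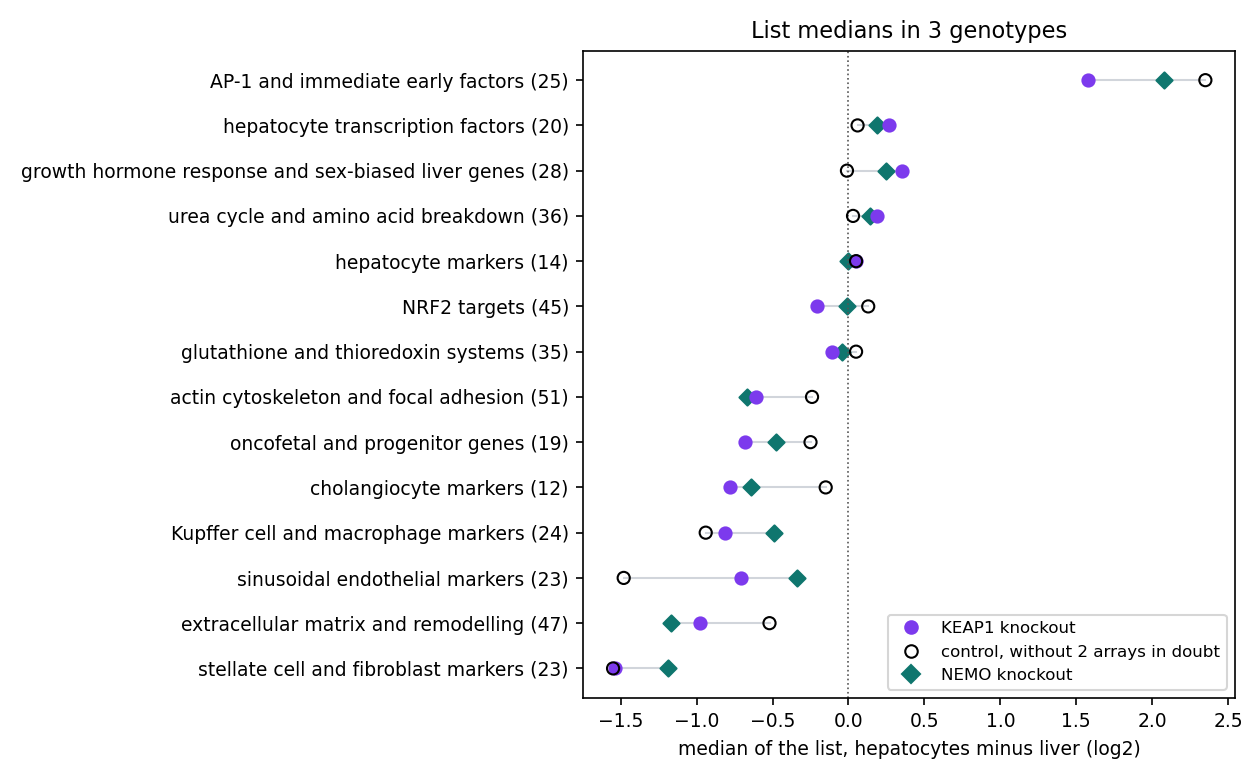
Median of each gene list (x axis, hepatocytes minus liver, log2) in KEAP1 knockout (filled purple), control without the 2 arrays in doubt (open) and NEMO knockout (green diamonds) for 14 lists (y axis, genes measured in brackets). The immediate early list is highest in all 3 genotypes, at 1.58, 2.35 and 2.08, and the endothelial list spreads most, from -1.48 in controls to -0.34 in NEMO knockout; the sign of the KEAP1 knockout median of the NRF2 and glutathione lists turned with median centring.

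The difference between the genotypes was tested as an interaction, the tissue difference in KEAP1 knockout minus that in the other genotype. Against controls 0 of 18820 genes (0%) were called by limma over 12 arrays, with 1066 at an unadjusted p under 0.05 and a lowest adjusted p of 0.868. Without the 2 arrays in doubt 0 were called, with 1551 at an unadjusted p under 0.05 and a lowest adjusted p of 0.0615. Against NEMO knockout 0 genes (0%) were called, with 1122 at an unadjusted p under 0.05 and a lowest adjusted p of 0.153. Slc7a11, the cystine importer, was at 3.40, 2.84 and 3.01 in NEMO knockout hepatocytes and at 3.15, 2.83 and 2.70 in NEMO knockout liver, so it was low in both tissues there. Its fall was larger in KEAP1 knockout than in NEMO knockout by -2.81 ± 0.42 (adjusted p = 0.153) and than in controls without the arrays in doubt by -3.37 ± 0.47 (adjusted p = 0.0702), and neither passed the threshold. With the control arrays in doubt included, no gene, and so not Slc7a11, had a limma adjusted p below 0.868 against controls. Slc7a11 was called against both genotypes in a fit of the 20 arrays not in doubt. Against NEMO knockout it was called also with the replicate number as a block and without KEAP1 knockout hepatocyte array 2. The stellate gene Rgs5 differed from NEMO knockout by -1.68 ± 0.27 (adjusted p = 0.153). The rise of Fos differed from that in NEMO knockout by 0.09 ± 0.48 (adjusted p = 0.992) and from that in controls by -0.70 ± 0.74 (adjusted p = 0.945).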

How the data were processed

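Per the submitters' processing notes the authors made the deposited log2 expression values with RMA, 1 value per probe set and array. No version or option of RMA is named there, nor whether the tissues were normalized jointly. Of 35556 probe sets, 21218 had 1 gene symbol in the platform annotation, 1881 had several and 12457 were not listed. Each gene took the probe set that was brightest on average over the 24 arrays, giving 18820 genes without a filter on low values. Symbols and promoters came from RefSeq tables of GRCm38.p6.

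Differences were fitted with limma 3.58.1 in R 4.3.3 (lmFit, eBayes with intensity trend, two-sided, Benjamini-Hochberg over all 18820 genes) on the 6 KEAP1 knockout arrays; interactions used 12 arrays. The fit was tested on simulated data. No read depth exists for arrays, and their number limits the precision. The background was the 95th percentile of 990 olfactory receptor genes on each array. Named genes were the 15 largest differences in each direction whose groups do not overlap, anchor genes of 48 lists and up to 3 further called members of each list; Xist, Eif2s3y and genes named as such in the text lay outside this rule. Members, lists and tests were chosen with earlier results of these data known. The fit did not pair arrays by replicate number. Residual correlations between arrays of the same number were -0.009, -0.054 and -0.091, under the set 0.1, but 3 arrays a group cannot show whether mice were shared. Alternatives were other array sets, scalings, a block, no trend, mean of probe sets, a filter and leaving out each array.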

Additional observations from a re-analysis of the deposited data

How the results depend on the processing

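The 1025 calls between cultured KEAP1 knockout hepatocytes and liver became 469 with all 24 arrays in 1 fit and 3718 with arrays centred on their median. They stayed within 1.5 times (789 to 1217) with 20 arrays, quantile normalization, housekeeping centring, no intensity trend, the mean of probe sets and the filter on low values. Leaving out 1 array gave 535 to 922. Whether arrays of the same number share a mouse is unknown, and with the number as a replicate block 710 genes were called (115 higher, 595 lower). The interaction with control gave 0 calls in most alternatives, 2 with 20 arrays (Rtn4 and Slc7a11, named after their values were seen), 0 with the replicate block and 0 to 1 without 1 array. The interaction with NEMO knockout gave 1 call (Slc7a11) with 20 arrays, 1 (Slc7a11) with the replicate block, and 0 to 5 without 1 array (5 without NEMO knockout liver 1). The larger fits share the spread of all their groups, and median centring adds a constant to each array. The cause of these shifts was not tested. Precision is limited by 3 arrays a group, by background for low genes and by the upper end of the scale for genes such as Alb.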

Other observations

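Small nucleolar RNA genes, which guide modification of ribosomal RNA and lie mostly in introns of host genes, were looked at after their values were seen. Of 56 measured, 8 were called higher in KEAP1 knockout hepatocytes than in liver and 0 lower by limma at an adjusted p under 0.05, and 53 had a difference above 0 (median 0.30, against 0.03 over all genes). Among all 18820 genes 0.935% were called higher and 4.51% lower, and 10312 had a difference above 0. With median centring 35 of the 56 were called higher, and 4 in the fit of all 24 arrays. Snora75 was at 6.77, 6.64 and 6.26 in hepatocytes and at 4.38, 3.47 and 4.93 in liver (2.29 ± 0.32, adjusted p = 0.00391). The same list had medians of 0.34 in controls, 0.28 in controls without the 2 arrays in doubt and 0.47 in NEMO knockout. The count was 4 without hepatocyte array 1, 5 without liver array 1 and 4 to 11 over all arrays left out in turn, and the list mean was 7.04 to 7.48 on hepatocyte arrays and 6.80 to 6.92 on liver arrays.

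Some genes varied more between mice than between the tissues. Cyp2b9, a female-biased P450 enzyme, was at 5.98, 2.80 and 8.04 in hepatocytes and at 8.67, 7.89 and 4.72 in liver, with a standard deviation of 2.64 over the hepatocyte arrays. Its relative Cyp2b10 was at 6.55, 4.10 and 6.52 in hepatocytes and at 8.06, 6.30 and 4.36 in liver. Both were low on hepatocyte array 2 and on liver array 3. Moxd1, a monooxygenase-like protein, was at 7.11 on hepatocyte array 2 and at 2.55 to 2.90 on the other 5 arrays. The metallothionein Mt2 was at 11.15, 10.16 and 10.59 in hepatocytes and at 10.79, 8.98 and 12.23 in liver. None of these 4 was called, and they were chosen by their spread.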
